A study of Mus musculus with 16 samples.

Results

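Tsc22d3, Txnip, Ddit4, Fkbp5, Nr3c1, Per1 and Sgk1, genes tied to the glucocorticoid response and to metabolic stress, were followed by name across all libraries. These 7 genes were taken from 31053 genes listed for lung and mesenteric lymph node (MLN) libraries and 32285 listed for the node libraries. They were picked with their levels in lung, MLN, the samples of each node and the reporter gates already known. Values that entered that choice are therefore given below as descriptions. All 7 passed the filter on low counts in each comparison.

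The cells were CD4+ T cells of 4get mice on a C57BL/6 background, whose Il4 locus also makes enhanced green fluorescent protein (IL-4eGFP), so that cells with an open Il4 locus fluoresce whether or not they secrete the cytokine. The mice had received 500 larvae of Nippostrongylus brasiliensis, a hookworm-like nematode that passes through the lung to the gut, and all samples were taken on day 10. There was no uninfected group. In the first run, IL-4eGFP+ cells of lung and MLN came from 2 mice aged 13 weeks, with 1 library per organ and mouse. In the second run, IL-4eGFP+ and IL-4eGFP- CD4+ cells of the mediastinal lymph node (medLN, which drains the lung) and the MLN (which drains the gut) came from 2 other mice aged 10 weeks. Hashtag antibodies told the 4 node samples apart within 1 pooled library per gate. Each group of organ or node and gate thus held 2 samples, 1 per mouse, and no p-value rests on more than 2 animals.

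Glucocorticoids bind the receptor encoded by Nr3c1, which leaves its chaperones, enters the nucleus and activates genes such as Tsc22d3 (the anti-inflammatory protein GILZ), Fkbp5 (a co-chaperone that lowers the receptor's affinity for hormone), Per1 (a repressor of the circadian clock) and Sgk1 (a kinase downstream of PI3K and mTORC2). Txnip encodes a thioredoxin-binding protein that limits glucose uptake, and it is induced by glucose-sensing transcription factors and lost from many activated lymphocytes. Ddit4 (REDD1) restrains mTORC1 and responds to hypoxia, energy stress and glucocorticoids. In T cells, FoxO transcription factors, which PI3K signalling keeps out of the nucleus, maintain genes of quiescence and recirculation such as Klf2, Ccr7 and Il7r.

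The promoter windows that carried the letters of these regulators are shown first because the members are usually grouped by them. RefSeq sequences (GRCm38.p6) covered 6 of the 7 genes with 14 windows of 250 bases before a transcript start, and Nr3c1 is named only. Both strands were searched for TGTTCT (a glucocorticoid receptor half-site), for the full receptor element (AGAACA and TGTTCT with any 3 bases between them, which contains half-sites on both strands), GTAAACA (a FoxO core), CACGTG (an E-box) and TGACGTCA (a cAMP response element). Capitals mark the matches in these windows, which lie at chr10:21993640-21993889 for Sgk1 (at a start inside the annotated gene), chr3:96557707-96557956 for Txnip and chr11:69098699-69098948 for Per1, all on the plus strand:
Sgk1: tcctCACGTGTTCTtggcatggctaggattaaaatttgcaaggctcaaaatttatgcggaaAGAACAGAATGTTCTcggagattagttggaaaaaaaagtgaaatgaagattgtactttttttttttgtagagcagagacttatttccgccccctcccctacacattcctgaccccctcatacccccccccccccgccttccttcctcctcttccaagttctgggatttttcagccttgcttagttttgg
Txnip: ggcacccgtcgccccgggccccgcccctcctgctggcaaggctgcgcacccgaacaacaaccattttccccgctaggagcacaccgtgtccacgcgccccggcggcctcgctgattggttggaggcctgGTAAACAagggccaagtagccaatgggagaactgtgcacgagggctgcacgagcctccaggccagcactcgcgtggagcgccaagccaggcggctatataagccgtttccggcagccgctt
Per1: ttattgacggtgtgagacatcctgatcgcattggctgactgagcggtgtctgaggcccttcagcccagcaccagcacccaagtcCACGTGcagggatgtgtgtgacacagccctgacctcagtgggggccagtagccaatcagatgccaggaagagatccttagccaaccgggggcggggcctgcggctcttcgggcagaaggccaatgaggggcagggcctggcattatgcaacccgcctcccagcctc

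The full receptor element stood in 1 of the 14 windows, that of Sgk1, and in 3 of the 32851 windows of all genes (0.00913%). The E-box at the start of the Sgk1 window overlaps a half-site. The half-site occurred in 4 member windows, of Sgk1 and Tsc22d3, against 16.1% of all windows. The FoxO core of Txnip began 121 bases before the transcript start and was present in 3.17% of all windows. The E-box was found in windows of Sgk1, Per1 and Fkbp5 and in 6.02% of all windows, while the cAMP response element was in none of the 14 and in 1.55% of all. These are matches of letters and not measured binding sites. In GRCm38 the genes span chr10:21882184-21999903 (Sgk1, plus strand), chr3:96557957-96561883 (Txnip, plus), chr11:69095217-69109960 (Per1, plus), chr10:59949669-59951834 (Ddit4, minus), chr17:28399094-28517527 (Fkbp5, minus) and chrX:140539528-140600659 (Tsc22d3, minus). The libraries count 5′ ends of transcripts by gene, so the starts used were not told apart.

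After filtering, 416 to 2462 cells per lung or MLN library and 1992 to 2249 cells per node sample were kept. Totals ran from 2789854 UMIs (unique molecular identifiers, each standing for 1 captured transcript) in lung 2 to 14442133 in MLN 1. UMIs were summed per sample and are given as CPM, the share of a sample's UMIs scaled to a total of 1000000. Such a sum cannot tell fewer expressing cells from less RNA per cell. Lung and MLN libraries shared at most 8 cell barcodes, and the node gates shared 147. Summed T helper markers were at 3087 to 4915 CPM in all samples, and erythroid markers at 0 to 0.944 CPM. Th2 markers summed to 1551 and 2058 CPM in lung, 609 to 627 in MLN and 377 to 511 in IL-4eGFP+ node samples, against 31.6 to 45.4 in IL-4eGFP- samples.

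Between lung and MLN, the 7 genes did not all move in the same direction. Tsc22d3, Per1, Nr3c1 and Sgk1 were higher in the lung, Txnip and Ddit4 were higher in the MLN, and Fkbp5 was about level. Tsc22d3 was at 192 and 206 CPM in lung 1 and lung 2 and at 44.9 and 24.7 CPM in MLN 1 and MLN 2, so that both lung libraries lay far above both MLN libraries. Its mean was 199 ± 9.98 CPM in lung and 34.8 ± 14.3 in MLN (SD, n = 2 each), a fitted log2 fold change of 2.58 (SE 0.22). Libraries of the same number were taken as 1 mouse, and within mouse 1 and mouse 2 the log2 ratio was 2.09 and 3.06.

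Per1 was at 75.8 and 59.5 CPM in the lung libraries and at 10.3 and 11.9 CPM in the MLN libraries. The means were 67.6 ± 11.5 and 11.1 ± 1.12 CPM (SD, n = 2), with a log2 fold change of 2.80 (SE 0.19). The within-mouse log2 ratio was above that of Tsc22d3 in mouse 1 and below it in mouse 2 (2.32), so the order of Per1 and Tsc22d3 was not fixed. Nr3c1, the receptor itself, was at 201 and 171 CPM in lung and at 75.8 and 84.0 CPM in MLN. It was higher in the lung in both mice, with a log2 fold change of 1.37 (SE 0.14) and within-mouse log2 ratios of 1.40 and 1.03. Sgk1 was low throughout, at 14.6 and 18.6 CPM in lung and 11.7 and 11.003 CPM in MLN. Its log2 fold change of 0.64 (SE 0.19) was the smallest of those called.

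The metabolic pair ran the other way. Txnip was at 37.1 and 73.1 CPM in lung and at 125 and 149 CPM in MLN, with means of 55.1 ± 25.5 and 137 ± 17.1 CPM (SD, n = 2) and a log2 fold change of -1.26 (SE 0.22). The lung libraries differed from each other by more than the MLN libraries did, yet both stayed below them. Ddit4 was at 150 and 105 CPM in lung and at 365 and 235 CPM in MLN, a log2 fold change of -1.07 (SE 0.24), and within the mice the log2 ratio was -1.28 and -1.16. Fkbp5, although a classical receptor target, was at 21.7 and 16.8 CPM in lung and 20.7 and 19.5 CPM in MLN. These ranges overlapped, and the log2 fold change was 0.13 (SE 0.18).

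In edgeR's quasi-likelihood test across 10588 genes, 6 of the 7 were called (4 higher and 2 lower in lung) against 31.0% of all genes tested (17.0% higher and 14.0% lower), and nothing was read from that count, since this contrast chose the members. DESeq2 called 4 of them, without Ddit4 and Sgk1, and over all genes 1147 higher and 686 lower in lung. Sgk1 also lost its call without either MLN library and in cells thinned to 2000 UMIs. The lungs were perfused, enzymatically digested and purified on Percoll whereas the nodes were only mashed, so organ and dissociation cannot be told apart.

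Shares of cells with a UMI were compared at equal depth. After thinning each cell to 2000 UMIs, 28.0% and 29.7% of lung cells held a Tsc22d3 UMI against 8.13% and 3.903% of MLN cells. Per1 was seen in 15.5% and 10.3% of lung cells against 2.07% and 3.23%, and Nr3c1 in 32.4% and 27.7% against 14.1% and 14.3%. Txnip was seen in 6.46% and 14.7% of lung cells against 22.1% and 25.7% of MLN cells, and Ddit4 in 18.6% and 14.7% against 44.8% and 31.0%. These shares kept the order of the CPM for each of the 5 genes. No cell type lacking the genes was at hand to set a background from free RNA.

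Other markers moved with organ as well. Summed regulatory T cell markers were at 539 and 557 CPM in lung and 148 and 178 CPM in MLN, cycling markers at 242 and 332 against 152 and 199, and myeloid markers at 7.07 and 11.1 against 21.9 and 26.9. The regulatory sum took in Ctla4 and Il2ra along with Foxp3 and Ikzf2, and it does not measure a share of regulatory T cells. Cells with a UMI of Foxp3, the factor of regulatory T cells, made up 0.284% to 0.721% of each lung or MLN library. Naive or recirculating markers were at 181 and 270 CPM in lung and 244 and 247 in MLN. The part of these markers in these differences was not tested.

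**Figure D1:**
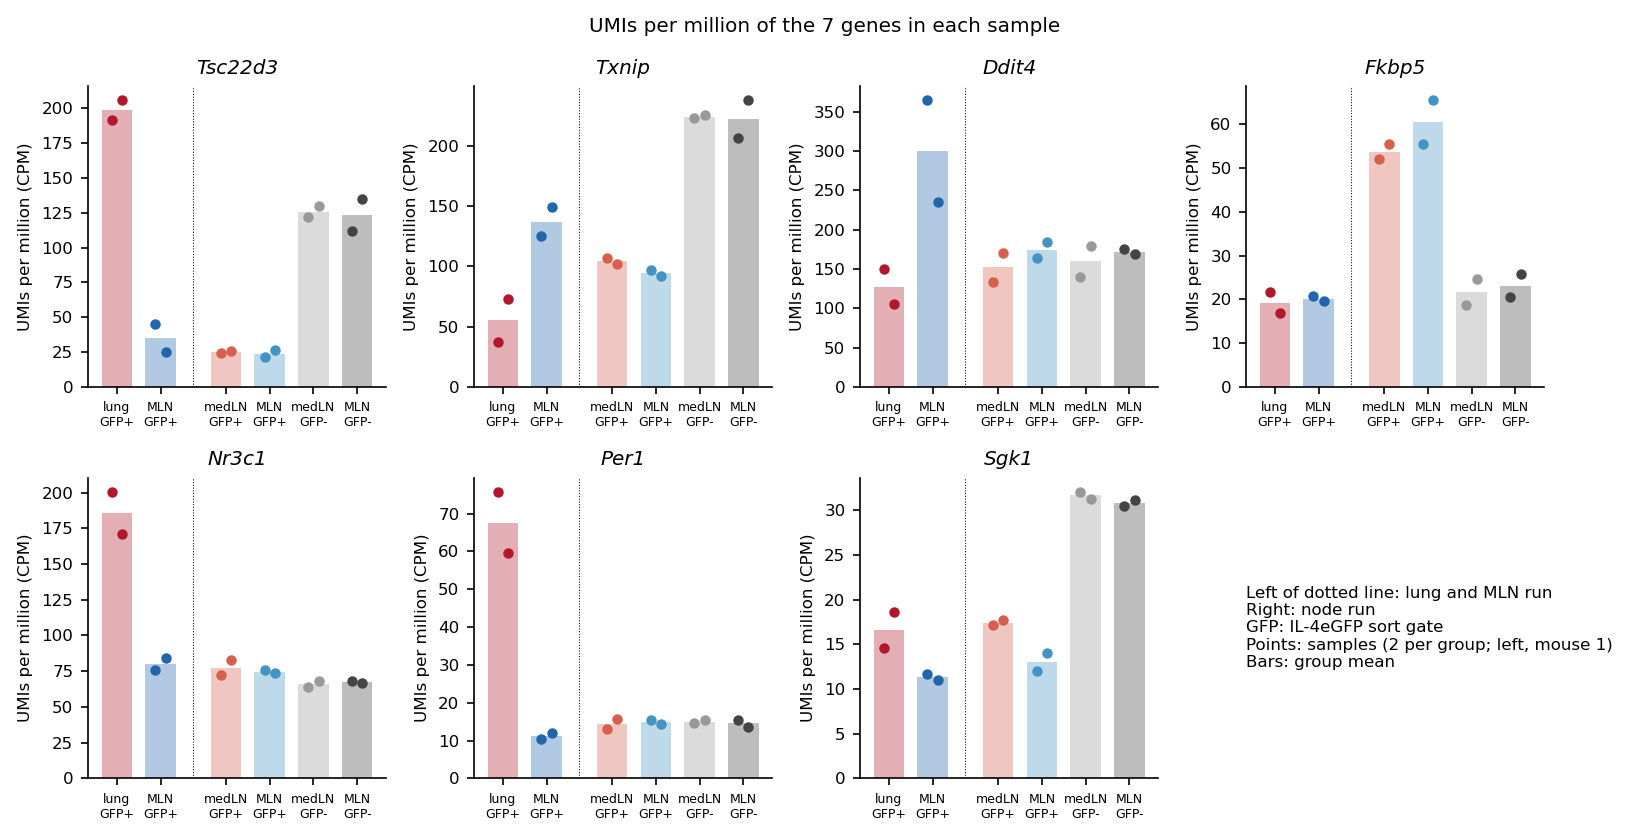
Bars give the group mean and points the 2 samples of each group (mouse 1 on the left) in CPM on linear axes from 0, with 1 panel per gene and a dotted line between the lung and MLN run and the node run. Tsc22d3 is high in lung and in IL-4eGFP- node cells, and Per1 and Nr3c1 are high in lung. Fkbp5 is high in IL-4eGFP+ cells of the node run but not in IL-4eGFP+ MLN cells of the first run.

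Other genes known to be induced by glucocorticoids were mostly higher in the lung. The lists used here and below were drawn up with earlier results of these data known, so their counts are descriptions. Over all genes tested, 17.0% were higher and 14.0% lower in lung, the background for each list in this contrast. Of 19 other glucocorticoid-induced genes tested, 15 rose in lung and none fell, with a median log2 fold change of 1.72 against -0.01 over all genes tested. Rgs2 (a regulator of G protein signalling) averaged 294 CPM in lung and 5.57 in MLN, a log2 fold change of 5.75, Cdkn1a (the cell cycle inhibitor p21) 127 and 3.84 CPM (5.34), Dusp1 (a phosphatase of MAP kinases) 888 and 33.1 CPM (4.78) and Errfi1 (an inhibitor of EGF receptor signalling) 37.4 and 4.18 CPM (3.26). Zbtb16 did not pass the test, with 0.943 and 11.5 CPM in lung against 6.44 and 7.64 CPM in MLN, and without lung 2 it was called lower in lung.

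Genes known from tissue dissociation and immediate early responses moved in the same direction, with 18 of 20 higher in lung, none lower and a median log2 fold change of 2.69. The 2 lists share Dusp1, Nfkbia and Zfp36 (13.6% of the first and 15% of the second). Among glucocorticoid-induced genes on no other list, 9 of 12 rose with a median of 1.69, and among dissociation genes on no other list 13 of 15 rose with a median of 2.30. The part of dissociation in the values of the members or of either list was not tested, with or without the shared genes.

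The receptor's own machinery was flatter. Of 13 chaperones, cofactors and local steroid enzymes, 4 rose and none fell, with a median log2 fold change of 0.12. Hspa8 (0.71), Ncoa2 (0.62) and Ncor1 (0.46), a chaperone, a coactivator and a corepressor, were among them. The other was Cyp11a1, the enzyme of the first step of steroid synthesis, with 121 and 17 UMIs in lung (14.3 and 6.09 CPM) against 5 and 1 UMIs in MLN (0.346 and 0.225 CPM).

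Among lists around Txnip and Ddit4, 2 of 9 glucose-sensing and thioredoxin genes rose in lung and none fell (median 0.27), Txn1, the thioredoxin bound by Txnip, by a log2 fold change of 0.54. Of 17 ATF4-linked stress genes, 7 rose and none fell (median 0.73), including Atf3 and Ppp1r15a, both also on the dissociation list (Atf3 43.4 against 0.259 CPM, 8.09, and Ppp1r15a 669 against 31.3 CPM, 4.45), Slc7a5, a large amino acid transporter (3.07), and Eif4ebp1, a translation repressor downstream of mTORC1 (1.24). In the mTOR and SGK pathway 3 of 14 rose and 1 fell (median 0.03), with Ndrg1, a substrate of SGK1, at 52.9 against 1.56 CPM (5.36). Of 15 FoxO-linked genes 9 rose and 1 fell (median 0.70), and 3 of the 15, Il7r, Bcl2l11 and Btg1, are also glucocorticoid-induced genes. Il7r, the receptor for interleukin 7, averaged 393 CPM in lung and 79.5 in MLN (2.48). Klf2 was at 65.4 and 103 CPM in lung against 49.5 and 51.9 in MLN, while Foxo1 itself overlapped, at 43.5 and 28.0 against 37.4 and 32.8 CPM.

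Per1 sat among clock genes of which 8 of 16 rose and 1 fell (median 0.48). Bhlhe40, a transcriptional repressor active in Th2 cells, was at 361 CPM in lung and 18.8 in MLN (log2 fold change 4.43), and Rora (3.26), Hlf (4.42) and Nfil3 (2.05) were also higher in lung.

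**Figure D2:**
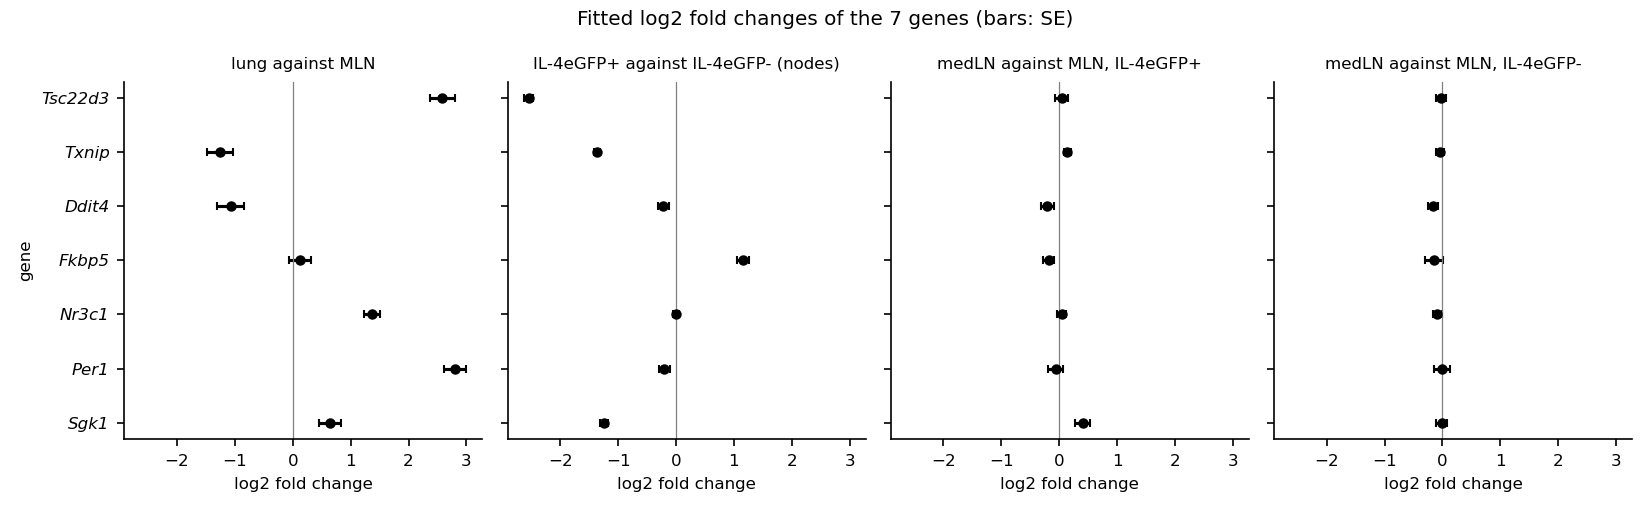
Points give the fitted log2 fold change and bars the SE of each of the 7 genes, in 1 panel for each of 4 comparisons between samples. Tsc22d3 lies at 2.58 for lung against MLN and at -2.55 for IL-4eGFP+ against IL-4eGFP- node cells, while for medLN against MLN the value farthest from 0 is Sgk1 in IL-4eGFP+ cells at 0.40.

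In the lymph nodes, the reporter gate split the set. Tsc22d3, Txnip and Sgk1 were lower in IL-4eGFP+ than in IL-4eGFP- CD4+ cells, Fkbp5 was higher, and Ddit4, Per1 and Nr3c1 were close to level. Tsc22d3 was at 24.1 and 25.5 CPM in the IL-4eGFP+ medLN samples, 21.5 and 26.1 in the IL-4eGFP+ MLN samples, 122 and 130 in the IL-4eGFP- medLN samples and 112 and 135 in the IL-4eGFP- MLN samples. The gates were separated by a wide gap, with means of 24.3 ± 2.06 and 125 ± 9.94 CPM (SD, n = 4) and a log2 fold change of -2.55 (SE 0.08). Within each of the 2 mice and 2 nodes the log2 ratio lay between -2.38 and -2.34.

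Txnip was at 107 and 102 CPM in IL-4eGFP+ medLN, 96.8 and 91.8 in IL-4eGFP+ MLN, 223 and 225 in IL-4eGFP- medLN and 207 and 238 in IL-4eGFP- MLN. The gates did not overlap, at 99.5 ± 6.70 against 223 ± 12.7 CPM (SD, n = 4) and a log2 fold change of -1.36 (SE 0.05). Sgk1 was at 17.1 and 17.7 CPM in IL-4eGFP+ medLN, 12.003 and 13.97 in IL-4eGFP+ MLN, and 30.5 to 32.1 CPM in the 4 IL-4eGFP- samples, with a log2 fold change of -1.24 (SE 0.07). For this kinase too, each IL-4eGFP+ sample was below each IL-4eGFP- sample.

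Fkbp5 ran opposite to Tsc22d3 and Sgk1. It was at 52.1 and 55.4 CPM in IL-4eGFP+ medLN and 55.4 and 65.5 in IL-4eGFP+ MLN, but at 18.7 and 24.7 CPM in IL-4eGFP- medLN and 20.5 and 25.7 in IL-4eGFP- MLN. The means of 57.1 ± 5.83 and 22.4 ± 3.35 CPM (SD, n = 4) gave a log2 fold change of 1.16 (SE 0.10). In MLN of the first run, also IL-4eGFP+, Fkbp5 was at 20.7 and 19.5 CPM, within the range of these IL-4eGFP- samples. Ddit4 was at 133 to 185 CPM in IL-4eGFP+ samples and 140 to 179 CPM in IL-4eGFP- samples, with a log2 fold change of -0.22 (SE 0.09). Per1 was at 12.99 to 15.8 against 13.6 to 15.4 CPM (log2 fold change -0.20). Both genes overlapped between gates, with means of 163 against 166 CPM for Ddit4 and 14.6 against 14.7 CPM for Per1. Nr3c1 was at 72.0 to 82.8 against 63.8 to 68.0 CPM, yet its fitted log2 fold change was -0.00 once composition was normalised by TMM. The fitted values of Ddit4 and Per1 carry the same scaling.

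The test called 4 of the 7 (1 higher, 3 lower) against 62.1% of the 11535 genes tested (31.8% higher and 30.3% lower). Nothing was read from this count or from calls of single members below, since this contrast too was in view when they were picked. With mouse as a replicate block Ddit4 was called as well, for 5 of 7. Ddit4 was called lower in 7 of 15 alternatives, DESeq2 and no filter on low counts among them, but its log2 fold change was 0.0067 without Mki67-positive cells. Without IL-4eGFP+ medLN 2, both Ddit4 (-0.32) and Per1 (-0.28) were called lower. Nr3c1 was called higher in IL-4eGFP+ cells (log2 fold change 0.20) once cells with an Mki67 UMI were left out. Each gate was 1 library, so that gate and library cannot be told apart. The 4 samples per gate came from 2 mice and were fitted as independent.

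Tsc22d3 was detected, at 2000 UMIs per cell, in 4.29% to 4.82% of IL-4eGFP+ cells and in 19.4% to 23.1% of IL-4eGFP- cells, and Txnip in 18.8% to 23.1% against 34.9% to 38.2%. Naive or recirculating markers summed to 283 to 347 CPM in IL-4eGFP+ samples and 971 to 1086 in IL-4eGFP- samples, while cycling markers summed to 609 to 779 against 67.0 to 135 CPM. B cell markers were at 18.2 to 43.6 CPM over the node samples. Without Mki67-positive cells, Txnip differed by -1.03 and Fkbp5 by 0.98. Direction was the same in that subset for Tsc22d3, Txnip, Sgk1 and Fkbp5. In IL-4eGFP+ samples the cells left had median UMIs of 2945 to 3393, against 9751.5 to 10549 in those removed. Cycling cells without a detected Mki67 UMI may thus remain. The part of the naive or recirculating markers was not tested.

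FoxO-linked genes lay on the side of Txnip and Tsc22d3. By gate, 30.3% of all genes tested were lower and 31.8% higher in IL-4eGFP+ cells, the background for this list and those that follow. Of 15 FoxO-linked genes tested, 11 fell in IL-4eGFP+ cells and 1 rose, with a median log2 fold change of -1.10 against -0.01 over all genes. The chemokine receptor Ccr7 (-2.46), the leucine sensor Sesn1 (-1.81), the egress receptor S1pr1 (-1.77) and the PI3K inhibitor Pik3ip1 (-1.74) were among them. Klf2 was at 212 to 318 CPM against 585 to 614 CPM (-1.35), and Foxo1 at 65.8 to 81.0 against 124 to 139 CPM (-1.04). Neither gene overlapped between gates.

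Of the 19 glucocorticoid-induced genes, 9 were higher in IL-4eGFP+ cells and 6 lower, with a median of 0.07. Among those on no other list, 8 of 12 rose and 1 fell, with a median of 1.61. Il1r2, a decoy receptor for interleukin 1, was higher (2.98). Of genes shared with the FoxO or dissociation lists, Il7r (-1.54), Zfp36, which destabilises mRNA (-0.82), and Btg1, an antiproliferative factor (-0.47), were lower. Zbtb16, which encodes PLZF, a factor of natural killer T cells, had 16 to 30 UMIs per IL-4eGFP+ sample and 0 or 1 per IL-4eGFP- sample. The part of such cells in this difference was not tested. In the receptor machinery 4 of 13 rose and 7 fell (median -0.17). Hsd11b1, which regenerates active glucocorticoid, averaged 39.9 CPM in IL-4eGFP+ and 128 CPM in IL-4eGFP- samples (-1.87), the chaperone Hsp90aa1 756 and 372 CPM (0.84), and the coactivators Ncoa3 (-0.62) and Ncoa1 (-0.52) were lower. Cyp11a1 had 42 and 39 UMIs in IL-4eGFP+ MLN, 3 and 16 in IL-4eGFP+ medLN, and 0, 0, 0 and 2 in the IL-4eGFP- samples.

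The remaining lists were mixed. Glucose-sensing genes split 4 higher and 4 lower of 10 (median -0.02), with Txn1 at 1.01, the thioredoxin reductase Txnrd1 at 0.66 and the glucose transporter Slc2a1 at 0.35. Of 16 ATF4-linked genes 6 rose and 1 fell (median -0.03), among them the serine synthesis genes Psat1 (1.27) and Phgdh (0.49, but -0.10 without Mki67-positive cells). Of 14 mTOR and SGK genes 1 rose and 4 fell (median -0.10), and the clock list split 6 higher and 5 lower of 16 (median -0.07), with Bhlhe40 at 2.53 and Dbp at -1.23. Dissociation and immediate early genes were lower in 10 of 18 and higher in 4 (median -0.32). Both gates were prepared from the same mashed nodes.

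**Figure D3:**
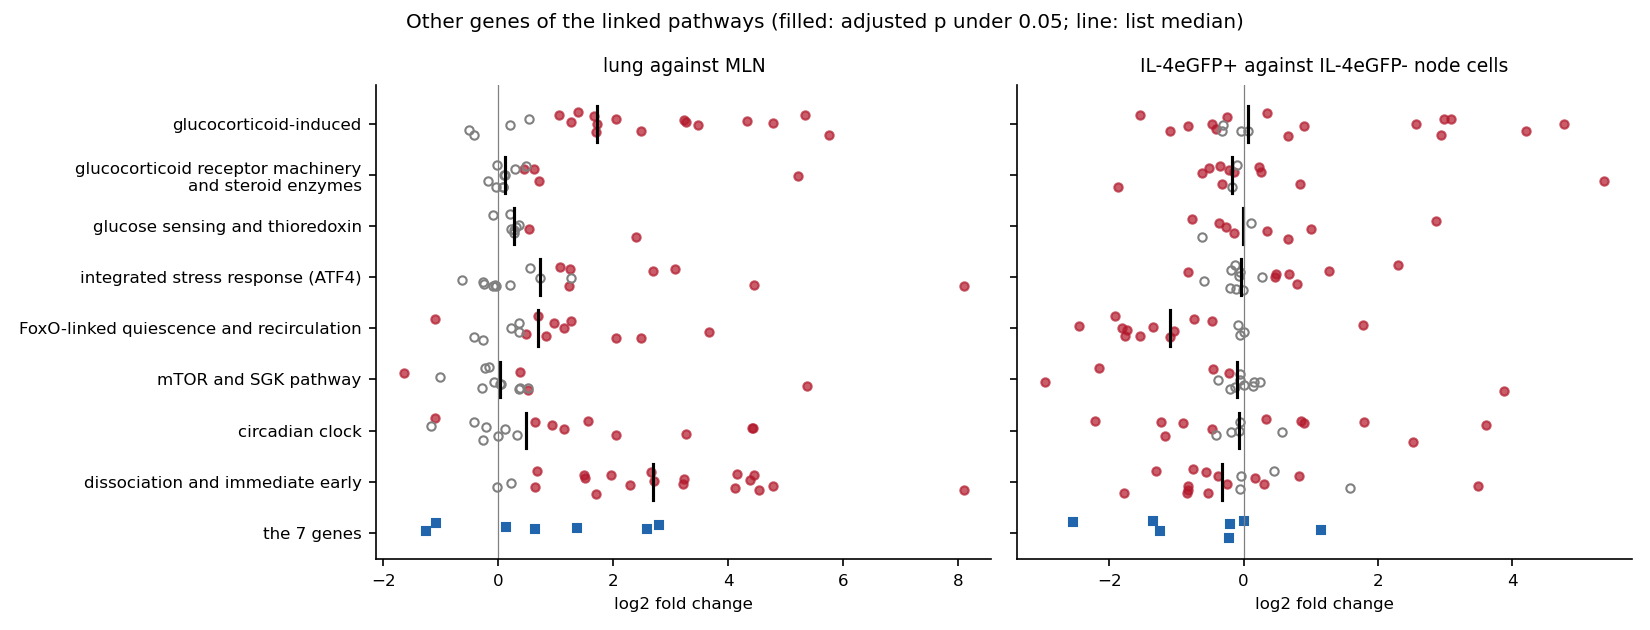
Each circle is the fitted log2 fold change of 1 gene of a list, filled where it was called, black lines are list medians, and blue squares are the 7 genes, for lung against MLN (left) and IL-4eGFP+ against IL-4eGFP- node cells (right). Glucocorticoid-induced and dissociation genes are shifted up in lung (medians 1.72 and 2.69), and FoxO-linked genes are shifted down in IL-4eGFP+ cells (median -1.10).

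The lung-draining and gut-draining nodes were also compared within each gate, and with all samples no member was called by edgeR's quasi-likelihood test. These node samples were in view when the members were picked, so nothing was read from the counts of members below. In IL-4eGFP+ cells 0 of 7 passed against 1.28% of 11263 genes tested (0.675% higher and 0.604% lower in medLN). There, 1 of 7 members and 1392 of the 11263 genes had an unadjusted p under 0.05. In IL-4eGFP- cells 0 of 7 passed against 0.178% of 10684 genes (0.150% higher and 0.0281% lower). An unadjusted p under 0.05 was found for 0 of 7 members and 666 of the 10684 genes. DESeq2 called 0 of 7 in either gate. Over all genes it called 69 higher and 53 lower in medLN in IL-4eGFP+ cells, and 15 higher and 2 lower in IL-4eGFP- cells. Ddit4 in IL-4eGFP- cells had a log2 fold change of -0.16 with all samples, -0.35 without medLN 2 and 0.0044 without medLN 1. Leaving out either of these left 1 medLN sample in the fit. The widest difference was in Sgk1 of IL-4eGFP+ cells, at 17.4 ± 0.392 CPM in medLN and 12.99 ± 1.39 in MLN (SD, n = 2), a log2 fold change of 0.40. Of 19 other glucocorticoid-induced genes 1 rose in medLN and none fell. The difference of the gate effect between nodes was called for 0 of 7 members and 0.156% of 11535 genes (0.0694% upward and 0.0867% downward) by edgeR. Its unadjusted p was under 0.05 for 1 of 7 members and 807 of the 11535 genes. For this difference DESeq2 called 0 of 7 and, over all genes, 15 upward and 22 downward.

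Lung and node samples came from separate runs with other mice, kits and software, so their levels can only be set side by side. The IL-4eGFP+ MLN population was measured in both. There, Tsc22d3 was at 44.9 and 24.7 CPM in the first run and 21.5 and 26.1 in the second, Txnip at 125 and 149 and at 96.8 and 91.8, and Nr3c1 at 75.8 and 84.0 and at 75.6 and 73.6. Ddit4 was at 365 and 235 CPM and at 164 and 185, and Fkbp5 at 20.7 and 19.5 CPM and at 55.4 and 65.5. The runs overlapped for Tsc22d3 but not for the other members, though for Nr3c1 the nearest samples of the runs stood at 75.8 and 75.6 CPM. The share of all genes that overlapped between runs was not computed, so nothing was read from this. In cells thinned to 2000 UMIs the runs also overlapped for Nr3c1, Per1 and Sgk1. In order of level, Tsc22d3 ran from lung through IL-4eGFP- node cells to the IL-4eGFP+ node and MLN samples, the last of which overlapped. Txnip ran from IL-4eGFP- node cells through MLN of the first run and IL-4eGFP+ node cells to lung, with no overlap between these 4 sets of samples at full depth. In thinned cells, MLN of the first run (139.1 to 163.8 CPM) and IL-4eGFP+ medLN (139.4 to 140.6 CPM) overlapped.

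The cells of a sample could also be split by 1 marker gene, a comparison that the choice of members did not use. Within-sample splits were fitted on paired sums with sample as a block and adjusted over all genes by edgeR's quasi-likelihood test with Benjamini-Hochberg correction. The 4 samples of each split came from 2 mice and were fitted as independent, so the p-values do not measure a spread over 4 animals. Cells with a UMI of Mki67, a marker of cycling cells, made up 6.63% to 14.2% of each lung or MLN library and 12.9% to 16.3% of each IL-4eGFP+ node sample. They were deeper, with median UMIs of 10159.5 to 10855 against 4851 to 6649 in lung and MLN.

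Fkbp5 rose with cycling in both runs. In lung 1, lung 2, MLN 1 and MLN 2 it was at 18.9, 12.3, 18.4 and 16.4 CPM in Mki67-negative cells and at 31.8, 31.3, 33.0 and 38.7 CPM in Mki67-positive cells, so all 4 samples moved up without overlap. The log2 fold change was 0.96 (SE 0.16, adjusted p = 7.74e-05, edgeR). In IL-4eGFP+ node samples it rose from 39.4 to 51.7 CPM to 61.7 to 87.5 CPM, a log2 fold change of 0.81 (SE 0.09, adjusted p = 1.66e-07, edgeR). It was also higher in the Mki67-positive cells of 4 of 4 IL-4eGFP- samples, which held 31 to 52 such cells each and were not fitted.

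Txnip moved opposite to Fkbp5. It fell from 134 and 165 CPM to 76.5 and 51.5 CPM in the MLN libraries and from 38.9 and 78.9 to 30.7 and 55.1 CPM in the lung libraries, a log2 fold change of -0.80 (SE 0.15, adjusted p = 0.000205, edgeR). In the IL-4eGFP+ nodes it fell from 118 to 141 CPM to 43.1 to 52.8 CPM, with a log2 fold change of -1.29 (SE 0.07, adjusted p = 1.16e-11, edgeR). Negative and positive cells did not overlap there, and 4 of 4 samples moved down.

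Of the other members, Tsc22d3 (-0.57, adjusted p = 0.00308), Per1 (-0.55, adjusted p = 0.0063) and Nr3c1 (-0.42, adjusted p = 0.00512) fell in cycling cells of lung and MLN, by edgeR. In MLN 2, however, Tsc22d3 was at 23.5 CPM in Mki67-negative and 32.2 CPM in Mki67-positive cells. Sgk1 did not pass in lung and MLN (-0.35, adjusted p = 0.263, edgeR) and was lower in Mki67-positive cells of 3 of 4 libraries. Altogether 5 of 7 were called (1 higher, 4 lower) against 35.5% of 9123 genes tested (17.4% higher and 18.1% lower). Without the block Fkbp5 alone was called, and Tsc22d3 and Per1 lost their calls under DESeq2 and without lung 1. In the IL-4eGFP+ nodes Per1 (-1.09, adjusted p = 1.69e-06), Ddit4 (-0.69, adjusted p = 6.31e-09) and Nr3c1 (-0.56, adjusted p = 7.73e-06) fell and Sgk1 rose (0.57, adjusted p = 0.000664), by edgeR. That made 6 of 7 against 68.9% of 10385 genes (34.1% higher and 34.8% lower), a share near the background. Tsc22d3 did not pass there (0.01, adjusted p = 0.94, edgeR). In the IL-4eGFP- samples, which were not fitted, it was lower in Mki67-positive cells of 4 of 4, at 15.8 to 52.5 against 116 to 139 CPM. Txnip, Ddit4 and Per1 were also lower in 4 of 4 of these samples, and Nr3c1 and Sgk1 in 3 of 4. After thinning to 2000 UMIs only Fkbp5 was still called in lung and MLN (1.43, adjusted p = 0.0339, edgeR) and only Fkbp5 and Txnip in the IL-4eGFP+ nodes (0.55 and -0.68). At full depth in the IL-4eGFP+ nodes, 12 of 19 glucocorticoid-induced list genes fell and 4 rose. The receptor machinery rose in 7 of 13 and fell in 6 at that depth, with a median of 0.85.

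Foxp3-positive cells, which carry the factor of regulatory T cells, made up 8.40% to 12.3% of each IL-4eGFP- node sample. They numbered 189 to 257 per sample and were shallower, with median UMIs of 2768 to 3157.5 against 3320 to 3410. Sgk1 was at 10.6 and 13.6 CPM in Foxp3-positive cells of medLN and 10.4 and 13.6 of MLN, and at 32.3 to 35.02 CPM in the Foxp3-negative cells. The 2 classes stood far apart, with a log2 fold change of -1.62 (SE 0.18, adjusted p = 6.2e-06, edgeR). Tsc22d3 fell from 113 to 138 CPM to 87.2 to 112 CPM (-0.52, SE 0.10, adjusted p = 0.00127, edgeR), and Fkbp5 rose in 4 of 4 samples (0.60, SE 0.18, adjusted p = 0.0197, edgeR). These were 3 of 7 members against 24.4% of 9819 genes (13.7% higher and 10.7% lower). The calls of Tsc22d3 and Fkbp5 did not pass in thinned cells, where Txnip was called higher (0.28), and that of Fkbp5 was lost under DESeq2 and without MLN 2.

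**Figure D4:**
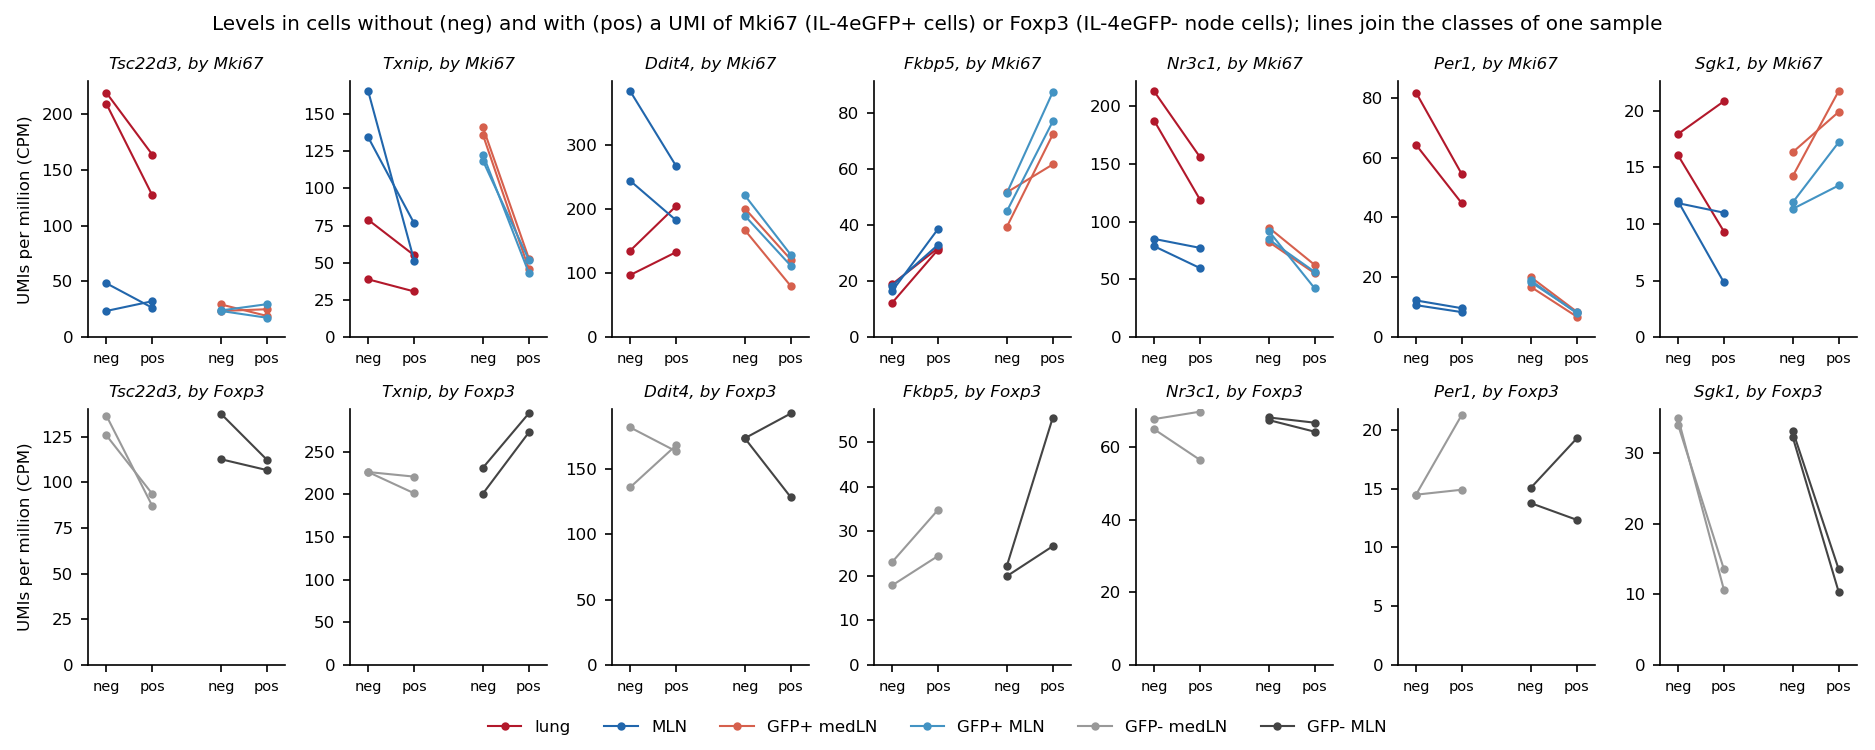
CPM of the 7 genes in cells without (neg) and with (pos) a UMI of Mki67 in the IL-4eGFP+ samples (top) or of Foxp3 in the IL-4eGFP- node samples (bottom), with lines joining the classes of 1 sample, on linear axes from 0. Fkbp5 rises and Txnip falls with Mki67 in each of the 8 samples, and Sgk1 falls with Foxp3 in each of the 4.

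Within single cells, Tsc22d3 and Txnip were seen together in more cells than independent detection gives in 12 of 12 samples, with a median phi coefficient of joint detection of 0.0486 at 2000 UMIs per cell. At this depth a weak value is no finding, in either direction.

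Across the 12 samples, with levels centred within each run, the genes whose log2 CPM ran most like Tsc22d3 were Cytip (Pearson r 0.978), Dusp10 (0.975), Nsd3 (0.971), Tmem123 (0.959) and Arl4c (0.958), out of 2531 genes with at least 50 CPM in each run. For Txnip they were Ldb1 (0.986), Prkd2 (0.975), Slc44a2 (0.972), Traf3ip3 (0.968) and Lef1 (0.965). Tsc22d3 and Txnip themselves ran together less closely (r 0.194), being opposite between lung and MLN and alike between gates. These are descriptions over samples that share mice, organs and 6 libraries.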

How the data were processed

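Sorted CD4+ T cells were loaded for 5′ single-cell sequencing, with 1 library per organ and mouse for lung and MLN and 1 per gate for the nodes. The authors deposited UMI count matrices from Cell Ranger, whose versions 2.1.1, 3.0.1 and 6.1.2 are named in the submitters' processing notes with the build GRCm38 (mm10). The files give raw counts per gene and cell, hashtag counts for the nodes and receptor contigs for lung and MLN. A kept cell had more than 500 UMIs and 500 genes, a mitochondrial share below 7% and a novelty score above 0.8, and lung and MLN cells also needed a productive alpha and beta chain. Hashtags were called with HTODemux in Seurat 5.3.0 (quantile 0.99, seed 42), and its doublets were removed. For lung and MLN, cells of several receptor chains were left out only as an alternative. The 268 receptor genes were left out, and counts were summed per sample (CPM over all remaining UMIs).

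Sums were tested with edgeR 4.0.16 (quasi-likelihood, TMM, filterByExpr, Benjamini-Hochberg, threshold 0.05), where SE is the absolute log2 fold change over the root of F. DESeq2 1.42.0, other scaling, no filter, thinning, leaving out samples and mouse as a block were alternatives. Before use, the fits were tested on simulated data: for lung against MLN, 195 of 195 genes changed by 2 log2 units were recovered with 12 false calls among 10420 genes. These counts were drawn with a single preset dispersion for all genes and no effect of mouse, so they do not give the error rate in the real samples. Lung and MLN libraries were paired by the number in their titles (1 or 2), which was taken to be the mouse. The deviations of paired samples correlated at 0.118 (lung with MLN), 0.486 and 0.136 (medLN with MLN, IL-4eGFP+ and IL-4eGFP-) and 0.332 and 0.291 (gates within medLN and MLN), over 5088 to 5875 genes.

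Members, gene lists and tests were chosen with earlier results of these data known. All 7 members are named throughout, and 1 listed gene, with the splits made on it, is not reported here. Of each list the first 4 genes by absolute log2 fold change among those called with at least 20 CPM may be named, with Cyp11a1, Zbtb16, Foxo1 and Klf2 in any case. Genes like Tsc22d3 and Txnip are the 5 of highest r. UMI counts of single genes limit precision: Sgk1 had 49 to 169 UMIs per MLN library.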

Additional observations from a re-analysis of the deposited data

Results flagged for a closer look

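In 2 of the 21 pairs of groups compared for the within-sample splits, both samples of one group moved up and both of the other moved down, on the mean log2 ratio of CPM + 1. Neither of these differences was tested, and the same count was not made over all genes, so nothing was read from it. Ddit4 was higher in Mki67-positive cells of lung (0.52) and lower in those of MLN (-0.47). In IL-4eGFP- cells, Txnip was lower in Foxp3-positive cells of medLN (-0.10) and higher in those of MLN (0.39). In the 14 sets of 4 samples checked for 1 far sample, 0 exceeded the limit of 0.829.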

How the results depend on the processing

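The number of genes called moved with the tool, the filter, the block, depth and single samples. For lung against MLN, 3284 genes were called, 1833 by DESeq2 and 2101 in thinned cells, and leaving out 1 library gave 1907 (without MLN 1) to 3678. Between medLN and MLN, 144 genes in IL-4eGFP+ cells became 47 with no filter, 85 without Mki67-positive cells and 13 to 191 leaving out 1 sample (13 without medLN 1, 49 without medLN 2). In IL-4eGFP- cells, 19 became 2 with no filter, 65 with mouse as a replicate block, 8 in thinned cells, 12 without Mki67-positive cells and 98 to 194 leaving out 1 sample. The gate effect differed between nodes for 18 genes, 37 by DESeq2 and 81 with the block. By Mki67 in lung and MLN, 3239 became 2066 by DESeq2, 1200 with no replicate block, 473 thinned and 2289 to 3005 leaving out 1 library, and in the nodes 7153 became 2962 thinned. By Foxp3, 2399 became 1449 thinned. The causes were not tested. The alternatives for the difference between nodes were chosen after seeing the data.

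Directions reversed for 1 called value, Phgdh between gates (0.49, and -0.10 without Mki67-positive cells), and otherwise for values that were not called. Fkbp5 in lung against MLN ran from -0.21 to 0.30 over the alternatives. Between gates the sign was kept in 8 of 15 alternatives for Nr3c1, 13 of 15 for Per1 and 14 of 15 for Ddit4. Uncalled members also changed sign in some alternatives between medLN and MLN. In lung against MLN, Zbtb16 was 0.79 without lung 1, -2.65 without lung 2 and 0.051 thinned, and Foxo1 -0.29 (without lung 1) to 0.50 leaving out 1 library. By Mki67, Ddit4 in lung and MLN was -0.076 without the block, -0.29 thinned, -0.21 (without lung 1) to 0.21 leaving out 1 library (-0.10 without lung 2), and Tsc22d3 in the nodes -0.0047 by DESeq2, -0.14 thinned, -0.16 (without MLN 2) to 0.17 leaving out 1 sample (-0.06 without medLN 1). By Foxp3, Txnip was -0.096 to 0.10 leaving out 1 sample (-0.096 and -0.089 without MLN 1 or MLN 2), and Per1 -0.050 (without medLN 2) to 0.17, and -0.28 thinned. DESeq2 raised the share of higher calls by Mki67 in lung and MLN from 49.1% to 60.5%. Other than for Ddit4 between gates, the block changed no member's call in the comparisons between samples.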
